A study of Capra hircus with 6 samples.

Results

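Single-exon circular RNAs are closed transcripts in which the end of an exon has been joined to the start of the same exon. They were taken from circular RNA (circRNA) profiles of goat muscle as the exonic entries with an exon count of 1. The tables listed 992 such entries among 25500. After entries of the same sequence, strand and end with starts 1 base apart were added together, 955 single-exon circRNAs remained among 24034 circRNAs, beside 19867 exonic circRNAs with more than 1 exon. The 955 came from 849 host genes, of which 766 held 1 and 83 held more.

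The samples were longissimus dorsi, the long back muscle, of Haimen goats: 3 libraries of kids at 1 day of age (kid) and 3 of fetuses at 75 days of pregnancy (fetus). No treatment or altered allele was named in the labels. RNA was depleted of ribosomal RNA and digested with RNase R, which removes linear RNA, before sequencing. The labels do not state that the 3 libraries of a stage came from separate animals, so the p-values speak only for how these libraries vary, which may be technical.

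A circRNA forms by back-splicing, in which a donor splice site is joined to an acceptor splice site that lies upstream of it. The first exon of a transcript has no acceptor and the last has no donor, so an exon that closes on itself is as a rule an internal one. Circles of a long second exon, such as those of HIPK3 and SLC8A1, are well known in human and mouse tissues.

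A back-splice read crosses the closing junction. Each circRNA has 1 such junction whatever its length, so the count need not grow with length as coverage does. Whether the detection of a junction depends on length was not tested. Back-splice reads numbered 77111, 42695 and 73922 in kid 1, 2 and 3, against 36484, 33222 and 56467 in fetus 1, 2 and 3. Of the raw reads, fetus 1 and fetus 2 kept 70.73% and 69.1% after trimming, against 84.0% to 87.9% in the other 4 libraries. Levels are given as CPM, reads per 1000000 back-splice reads after TMM scaling between libraries. In the shallowest library 3 reads are worth 82.2 CPM. circRNAs of the muscle genes NEB, TTN, RYR1, DMD and ATP2A1 were present in all 6 libraries, at 408 to 8015 CPM per gene, while those of the developmental myosin gene MYH8 ranged from 0 CPM in fetus 2 to 153 CPM.

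Single-exon circRNAs made up 3.97% of the circRNAs and held 10574 reads, 3.31% of the total. Most were rare: 399 had 1 read in all (41.8%, against 35.9% of the multi-exon circRNAs), 391 had 2 to 9 reads and 165 had at least 10. Only 73 had a read in every library. Of the 955, 346 were seen only in kid libraries, 305 only in fetus libraries and 304 in both stages. The 10 with most reads held 38.4% of the reads of the class.

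The exon that closed on itself was most often the second of its transcript. An exon number could be read for 899 single-exon circRNAs, and 324 of them (36.0%) were second exons. These 324 carried 49.4% of the reads of the 899. By comparison, 10.97% of 17825 multi-exon circRNAs began at exon 2, with 15.7% of their reads. Exon 3 gave 114 single-exon circRNAs (12.7%), exon 4 gave 86 (9.57%) and exons above 10 gave 189 (21.0%). Exon 1 gave 2, with 2 reads together. Members of the 2 classes can share a host and a splice site, so these shares are given as a description without a test.

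**Figure D1:**
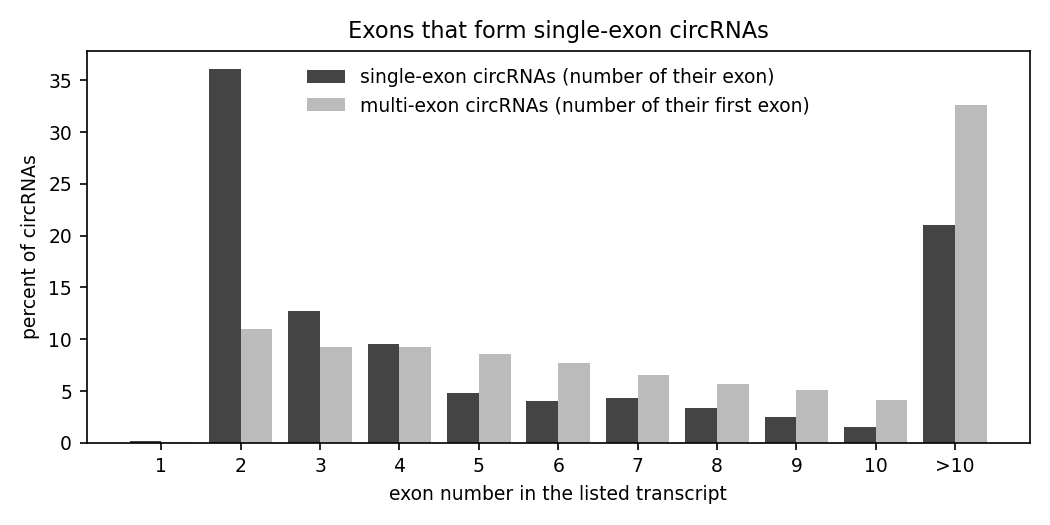
Percent of circRNAs (y axis) by exon number in the listed transcript (x axis), for the exon of 899 single-exon circRNAs (dark bars) and the first exon of 17825 multi-exon circRNAs (light bars). The dark bar at exon 2 reaches 36.0%, against 10.97% for the light bar, and exons above 10 hold 21.0% and 32.6%.

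The exons that closed alone were long. Single-exon circRNAs had a median length of 255 bases (quartiles 191 and 506), against a mean exon length of 128 bases at the median of the multi-exon circRNAs. Taken whole, 2-exon circRNAs had a median of 278 bases (quartiles 229 and 339). The shortest single-exon circRNA had 108 bases, and whether a least size of circle bears on the comparison of exons was not tested. Single-exon circRNAs from second exons had a median of 318.5 bases, and those from later exons 224 bases. At least 1000 bases were reached by 100 of the 955 (10.5%). These are lengths as listed, which exceeded the genomic span in 49 members and so cannot all be the length of 1 exon there; the median span was 251 bases and the longest 5202. Only 63 were shorter than the 150 bases of a read. Length also differed with abundance: the median was 213 bases for circRNAs with 1 read, 275 for those with 2 to 9 and 379 for those with at least 10. Across the 899 with an exon number, Spearman's rho between length and reads was 0.313, given as a description over circRNAs from the same 6 libraries. A length that is a multiple of 3, which would keep the same reading frame on each pass around the circle, was found in 37.3% of them, close to 38.1% of the multi-exon circRNAs. Whether such a frame is free of stop codons was not examined.

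**Figure D2:**
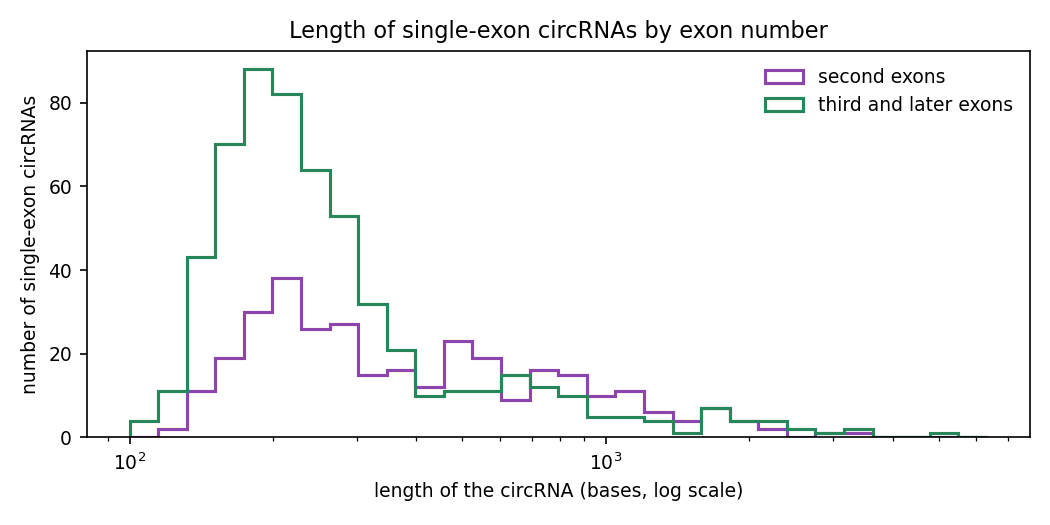
Number of single-exon circRNAs (y axis) by length in bases (x axis, log scale), for second exons (324, purple) and for all later exons (573, green). The medians are 318.5 bases for second exons and 224 bases for later ones, and the longest circRNA drawn has 5202 bases.

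For a small part of the entries the tables give the neighbouring introns in place of an exon number, and an intron lay within 1 base of both ends in 50 single-exon and 2991 multi-exon entries as listed. Of the 50, 37 had been joined to a neighbouring entry that carried an exon number. The upstream intron had a median of 10.6 kb beside single exons and 7.10 kb beside multi-exon circRNAs. The downstream intron had a median of 21.2 kb beside single exons and 6.55 kb beside multi-exon circRNAs. How the entries with listed introns were selected is not given in the files, and no test was made.

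Splice sites were in part shared with other kinds of circRNA. The acceptor of 284 of the 899 (31.6%) and the donor of 209 (23.2%) also closed a multi-exon, intronic or intergenic circRNA, and 479 shared neither. Sites had to match at the exact base, so a site listed 1 base apart was not counted as shared. Second exons shared the acceptor in 40.1% and the donor in 9.57%, and later exons the acceptor in 26.9% and the donor in 30.9%. A multi-exon circle that ends at exon 2 has to begin at exon 1, as 14 of 17825 multi-exon circRNAs did. The donor share of second exons is therefore limited by position and is not a like comparison with later exons. Most hosts gave both kinds of circle: 255 of the 849 had no multi-exon circRNA, and 594 had some. Among the 228 hosts with at least 50 exonic reads, single-exon circles held a median of 3.04% of the reads. They held over 50% in 38 of these hosts and over 90% in 17.

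INSR, the insulin receptor gene, stood first in reads and was higher in kid. Its second exon formed the single-exon circRNA with most reads (chr7:96049039-96049590, 552 bases, minus strand), and single-exon circles were 95.9% of the exonic back-splice reads of this gene. It stood at 3853, 4268 and 4686 CPM in kid 1, 2 and 3, against 1988, 1945 and 2088 CPM in fetus 1, 2 and 3. All kid libraries lay above all fetus libraries. The difference was 1.09 ± 0.17 on the log2 scale (SE, kid over fetus; adjusted p = 0.00165, edgeR's quasi-likelihood test with Benjamini-Hochberg adjustment over all circRNAs tested), the measure and test used throughout. Multi-exon circles of INSR stood at 207 ± 65.3 CPM in kid and 63.3 ± 88.5 CPM in fetus (SD, n = 3 each).

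PANK1, a kinase gene of the first step of coenzyme A synthesis, came next with exon 4 (chr26:40085020-40085372, 353 bases, plus strand). Its circRNA had 2039, 2005 and 1374 CPM in kid and 2906, 2603 and 3091 CPM in fetus libraries. All kid values lay below the fetus values, and the log2 difference was -0.67 ± 0.21 (adjusted p = 0.0461). This call was lost in each of the 6 fits that left out 1 library (adjusted p = 0.0549 to 0.162), with DESeq2 (0.0659), scaled to valid reads (0.258), without a read filter (0.468) and over entries as listed (0.0520). Multi-exon circles of PANK1 stood at 97.2 ± 86.4 CPM in kid and 316 ± 85.5 CPM in fetus (SD, n = 3 each). SAMD4A, which encodes an RNA-binding repressor of translation, had on exon 2 1111, 1003 and 709 CPM in kid and 1453, 1370 and 1266 CPM in fetus libraries. The stages did not overlap, but the difference did not pass (log2 -0.53 ± 0.24, adjusted p = 0.159; without TMM, 0.0454).

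Of the next members by reads, IGF1R, GPC3 and FGFR1 did not pass the test. IGF1R, the gene of the insulin-like growth factor receptor, had on exon 2 422, 668 and 1345 CPM in kid and 994, 904 and 937 CPM in fetus libraries. Kid 3 stood above every fetus library and kid 1 and 2 below, while the fetus libraries lay close together. FGFR1, a fibroblast growth factor receptor gene whose exonic reads were all on single exons, had 821 ± 69.9 CPM in kid and 659 ± 171 CPM in fetus (SD, n = 3 each; adjusted p = 0.462). GPC3, a gene of a heparan sulphate proteoglycan of the cell surface, had 621 ± 197 CPM in kid and 875 ± 338 CPM in fetus (SD, n = 3 each; adjusted p = 0.387), and only 1 of its 2 junction ends lay at a listed intron.

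**Figure D3:**
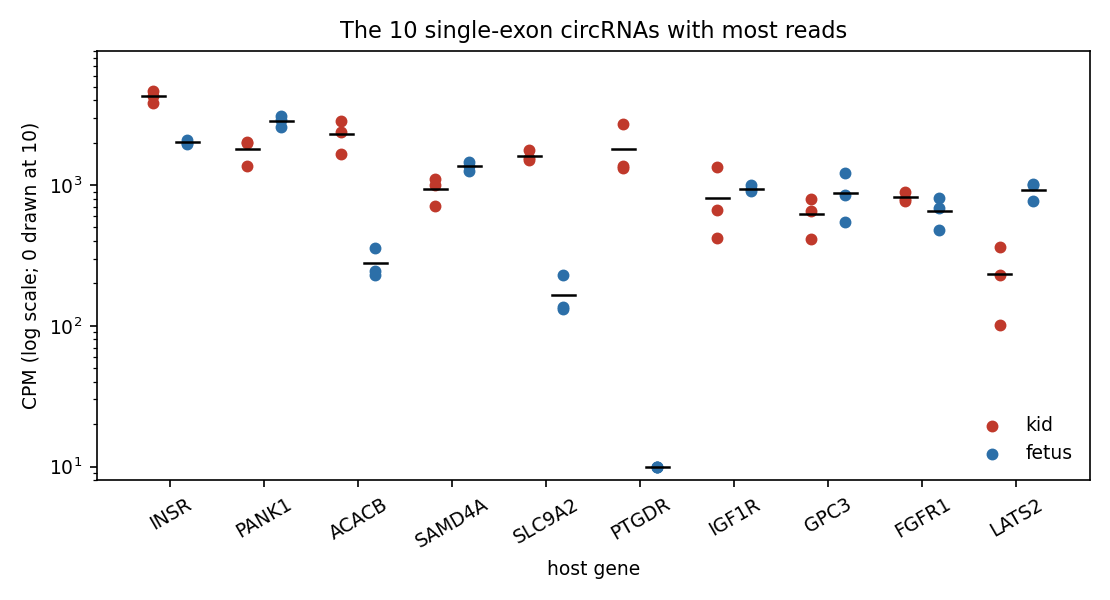
CPM per library (y axis, log scale, values of 0 drawn at 10) of the 10 single-exon circRNAs with most reads, by host gene (x axis), with kid libraries in red, fetus libraries in blue and the stage mean as a black line. ACACB, SLC9A2 and PTGDR are far higher in kid libraries, LATS2 is lower, and IGF1R, GPC3 and FGFR1 overlap between stages.

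As a class, single-exon circRNAs overlapped between stages in their share of the reads. They were 3.14%, 3.60% and 3.07% of the back-splice reads in kid 1, 2 and 3, against 3.63%, 3.63% and 3.22% in fetus 1, 2 and 3. The ranges overlapped, with a difference of -0.226 percentage points, kid minus fetus (p = 0.2, exact permutation test over the 6 libraries, two-sided, where the smallest possible p is 0.1). Of the exonic back-splice reads alone they were 3.83% in kid and 3.87% in fetus (exact p = 0.9). Their summed CPM, after TMM scaling, was 35440 ± 3565 in kid and 32238 ± 2041 in fetus (SD, n = 3 each, exact p = 0.3). The sign of the difference thus depended on the scaling. At an equal depth of 33222 reads, 251 ± 9.71 single-exon circRNAs were detected in kid and 288 ± 24.3 in fetus libraries (SD, n = 3 each; exact p = 0.1). Every kid library lay below every fetus library in this number, but as a share of all circRNAs detected at this depth the stages overlapped (3.81% in kid and 4.04% in fetus, exact p = 0.6).

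Of the reads of members with an exon number, second exons held 47.8% ± 1.46 in kid and 51.3% ± 1.77 in fetus (SD, n = 3 each; exact p = 0.1, the smallest possible), without overlap. Without the 10 members with most reads the stages overlapped in the second-exon share, at 46.5% to 47.4% in kid and 47.2% to 51.3% in fetus. The median length over reads was 421 ± 51.6 bases in kid and 368 ± 23.7 in fetus (SD, n = 3 each; exact p = 0.2), and the 53-base difference shrank to 1.33 bases over members with both ends at a listed intron.

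For the test of single circRNAs, at least 5 reads in at least 3 libraries were required, which 69 of the 955 met and 886 did not. Of the 69, 15 passed an adjusted p of 0.05, 9 higher and 6 lower in kid. Over all 1962 circRNAs tested, 300 passed, which is 15.3% (9.43% higher and 5.86% lower in kid). The median log2 difference was -0.11 over the 69 and 0.07 over all tested. The stages did not overlap in CPM for 31 of the 69 members, against 37.5% of all tested circRNAs. The filter bears on these counts. Through the kid libraries alone 6 members passed it, of which 4 were called higher: PTGDR, FAM160A1, CKM and POPDC2. Through the fetus libraries alone 6 passed it, of which 2 were called lower: TBC1D14 and DCLK1. For the members named here, entry to the test and the size of the difference are not independent. In bulk muscle, fewer cells of a type and less RNA per cell cannot be told apart.

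**Figure D4:**
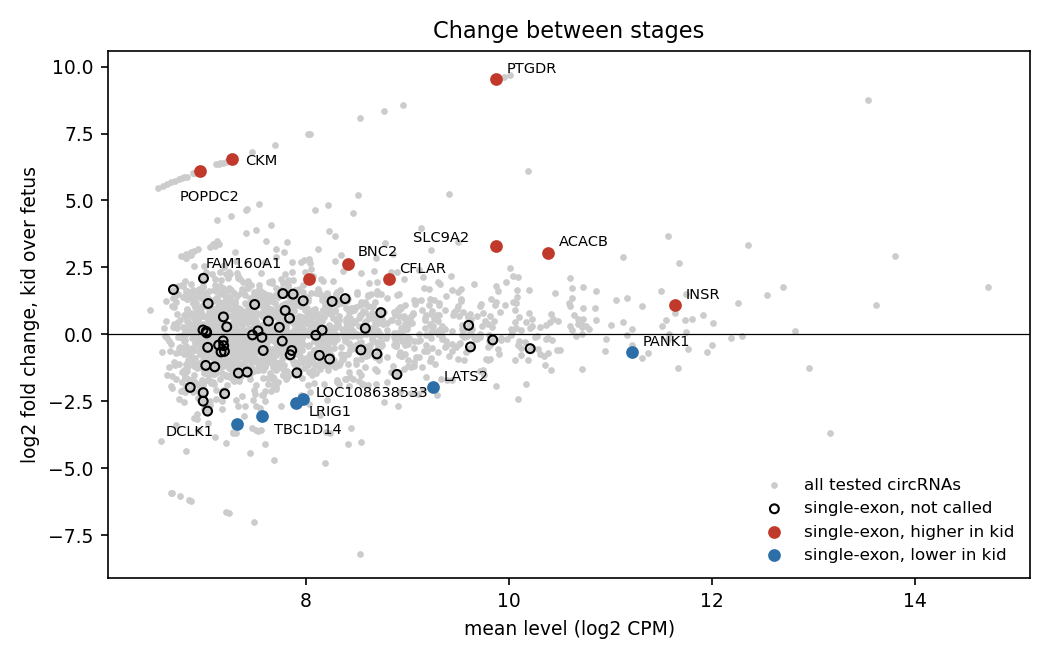
Log2 fold change of kid over fetus (y axis) against mean level in log2 CPM (x axis) for all 1962 tested circRNAs (grey), with the 69 tested single-exon circRNAs as open circles where not called, red where higher in kid and blue where lower. The 9 red and 6 blue points are named by host gene, and PTGDR, CKM and POPDC2, the upper 3, had no fetus read.

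Higher in kid were 2 exons of genes of lipid and ion handling. Exon 39 of ACACB, the acetyl-CoA carboxylase gene whose product restrains fatty acid oxidation in muscle, formed a circle of 270 bases (chr17:7243729-7243998, plus strand). It had 1659, 2854 and 2401 CPM in kid against 357, 247 and 230 CPM in fetus libraries. The lowest kid value was several times the highest fetus value, and the log2 difference was 3.05 ± 0.30 (adjusted p = 6.23e-05). Multi-exon circles of ACACB stood at 2306 ± 725 CPM in kid and 162 ± 61.2 CPM in fetus (SD, n = 3 each). Exon 5 of SLC9A2, a sodium-proton exchanger gene (chr11:7260854-7261056, 203 bases, plus strand), had 1505, 1774 and 1562 CPM in kid against 229, 137 and 132 CPM in fetus libraries. Stages were again far apart (log2 difference 3.28 ± 0.30, adjusted p = 4.54e-05), and single-exon circles were 90.5% of the exonic back-splice reads of this gene. Multi-exon circles of SLC9A2 stood at 149 ± 67.5 CPM in kid and 40.2 ± 35.2 CPM in fetus (SD, n = 3 each).

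Among the called members, 3 had reads in kid only, and so met the read minimum through the kid libraries alone. PTGDR, a prostaglandin D2 receptor gene, had 94, 105 and 94 reads in kid 1, 2 and 3 and none in fetus libraries (chr10:57881637-57881971, minus strand). Taking 3 reads over the 3 fetus libraries as the floor, it was at least 74.4-fold higher in kid (adjusted p = 6.23e-05). Its listed length of 626 bases exceeded its genomic span of 335 bases and only 1 end lay at a listed intron, and whether it is 1 whole exon cannot be told from the files. CKM, the creatine kinase gene of muscle, had 10, 12 and 16 reads in kid and none in fetus libraries on exon 2 (chr18:54015598-54015811), at least 9.65-fold higher in kid (adjusted p = 0.00578). POPDC2, a Popeye domain gene whose product binds cyclic AMP in striated muscle, had 13, 5 and 11 reads in kid and none in fetus libraries on exon 3, at least 7.37-fold higher in kid (adjusted p = 0.0129). Without fetus 3, the deepest fetus library, each of these bounds would be 55.5% of its value. On multi-exon circles CKM had 3 reads in kid and 0 in fetus, POPDC2 had 3 in kid and 2 in fetus, and PTGDR had none.

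The other 3 higher members came from genes of cell death control and transcription and from FAM160A1. Exon 9 of CFLAR, which encodes an inhibitor of caspase-8, had 422, 771 and 781 CPM in kid against 178, 164 and 132 CPM in fetus libraries. All kid libraries were above all fetus libraries (log2 difference 2.05 ± 0.40, adjusted p = 0.00552). Exon 6 of the zinc finger gene BNC2, a circle of 1970 bases (chr8:27805904-27807873, plus strand), had 394, 797 and 376 CPM in kid against 25.5, 137 and 82.2 CPM in fetus libraries. It too did not overlap between stages (log2 difference 2.62 ± 0.55, adjusted p = 0.00722). Exon 4 of FAM160A1 stood at 355 ± 82.6 CPM in kid and 83.9 ± 22.9 CPM in fetus (SD, n = 3 each, adjusted p = 0.0113). It met the read minimum through the kid libraries alone, and without fetus 1 the adjusted p was 0.0526. Multi-exon circles of FAM160A1 stood at 583 ± 57.8 CPM in kid and 143 ± 19.2 CPM in fetus (SD, n = 3 each). Those of CFLAR stood at 97.9 ± 72.4 CPM in kid and 49.2 ± 30.4 CPM in fetus (SD, n = 3 each), and those of BNC2 had 2 reads in all.

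Lower in kid was the second exon of LATS2, a kinase gene of the Hippo pathway that restrains growth (chr12:51087932-51088462, 531 bases, minus strand). It had 366, 231 and 101 CPM in kid against 994, 767 and 1019 CPM in fetus libraries. Every kid value was under every fetus value, and the log2 difference was -1.98 ± 0.41 (adjusted p = 0.00642). Without kid 1 it was -2.58. LATS2 had 2 reads on multi-exon circles in all, so nearly all of its exonic circRNA was this exon.

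TBC1D14, DCLK1 and LRIG1 were also lower in kid and had few kid reads. The second exon of TBC1D14, a gene of autophagy, had 3, 1 and 2 reads in kid against 9, 17 and 12 in fetus libraries (log2 difference -3.04 ± 0.62, adjusted p = 0.00639). Exon 3 of DCLK1, a microtubule-associated kinase gene, had 2, 0 and 2 reads in kid against 7, 17 and 7 in fetus libraries (log2 difference -3.34 ± 0.83, adjusted p = 0.0173). In both the stages did not overlap, and without kid 1 DCLK1 was not called (adjusted p = 0.0516). Both met the read minimum through the fetus libraries alone. Exon 13 of LRIG1, whose product dampens receptors of the epidermal growth factor family, had 14.1, 129 and 57.8 CPM in kid against 535, 301 and 263 CPM in fetus libraries (log2 difference -2.58 ± 0.62, adjusted p = 0.0151). Its difference was -2.04 without kid 1 and -3.24 without kid 2, and the call was lost without kid 1, kid 3 or fetus 1 (adjusted p = 0.0502 to 0.0701). It is the sum of 2 entries with starts 1 base apart, and over entries as listed the difference was -3.67. Multi-exon circles of TBC1D14 stood at 37.4 ± 30.8 CPM in kid and 160 ± 128 CPM in fetus (SD, n = 3 each). Those of DCLK1 stood at 9.37 ± 16.2 CPM in kid and 77.3 ± 24.2 CPM in fetus (SD, n = 3 each). Those of LRIG1 stood at 46.6 ± 18.1 CPM in kid and 52.9 ± 45.9 CPM in fetus (SD, n = 3 each).

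The sixth lower member, LOC108638533, had 8, 4 and 0 reads in kid and 15, 10 and 27 reads in fetus libraries (log2 difference -2.41 ± 0.68, adjusted p = 0.0314). The stages did not overlap in CPM. It passed in 2 of the 6 fits that left out 1 library, with a difference of -3.16 without kid 1 and -1.72 without kid 3, and not over entries as listed (adjusted p = 0.0678). Only 1 of its ends lay at a listed intron, and its listed length of 879 bases exceeded its genomic span of 437 bases. Whether it is 1 whole exon cannot be told from the files.

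Calls were fewer when fetus 1 and fetus 2 were left out together. When fetus 3 stood by itself for its stage, in a fit that assumes the lone library varies like the kid libraries, 3 members were called: ACACB, SLC9A2 and PTGDR. INSR (log2 difference 0.94, adjusted p = 0.146), LATS2 (-2.21, adjusted p = 0.0946) and CFLAR (2.20, adjusted p = 0.105) kept their sign there. Over all circRNAs that fit called 22 of 1638. The part of the lower share of reads kept in fetus 1 and fetus 2 was not tested.

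Genes of growth signalling (42 on the list) gave 13 single-exon circRNAs, of which 5 were tested and 1, INSR, rose; the median log2 difference was 0.26, against 0.07 over all tested. The second exons of SMAD5 and SMAD1, which pass on bone morphogenetic protein signals, had log2 differences of 0.26 and -0.60 and did not pass (adjusted p = 0.792 and 0.514). Metabolic genes (41) gave 5 members, and the 2 tested, ACACB and CKM, rose, where 9.43% of all tested circRNAs did. CKM was among those that passed the read minimum through the kid libraries alone. All circRNAs of the metabolic hosts summed to a mean of 32814 CPM in kid and 13072 CPM in fetus libraries. For the growth signalling hosts these means were 13206 CPM in kid and 13117 CPM in fetus. Chromatin and transcription genes (70) gave 25, of which 4 were tested and 1, BNC2, rose, with a median of 0.54. All circRNAs of the hosts in that list summed to a mean of 31125 CPM in kid and 32437 CPM in fetus. In that list exon 2 of NFIX, a transcription factor gene of fetal myogenesis in mouse, had 352, 411 and 492 CPM in kid against 280, 0 and 197 CPM in fetus libraries; the stages did not overlap, and the difference did not pass (log2 1.33 ± 0.61, adjusted p = 0.168).

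Genes of calcium handling and the muscle membrane (42) gave 20 members, of which 3 were tested and none was called, with a median of 0.13. All circRNAs of the hosts in this list summed to a mean of 21294 CPM in kid and 9189 CPM in fetus. DAG1, the dystroglycan gene, had on exon 2 155, 668 and 57.8 CPM in kid and 25.5, 82.2 and 148 CPM in fetus libraries. These ranges overlapped, with kid 2 far above the rest (adjusted p = 0.259). SNTB1, a syntrophin gene, had a log2 difference of 0.13 (adjusted p = 0.924). Of the hosts known for single-exon circRNAs in human and mouse (8 genes, 8 members), HIPK3 was tested: its second exon of 1099 bases had 112, 129 and 246 CPM in kid and 229, 247 and 132 CPM in fetus libraries, which overlapped (log2 difference -0.25 ± 0.51, adjusted p = 0.800). The second exon of SLC8A1, a sodium-calcium exchanger gene, gave 7 reads in kid and 4 in fetus.

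Sarcomere genes (50) gave 37 single-exon circRNAs from 14 hosts, none with enough reads for the test, with 97 reads in kid and 18 in fetus. TTN alone held 68 of these kid reads and 3 of the fetus reads. The read counts of this list and of the next 2 are not scaled for depth. Matrix genes (41) gave 9 members with 5 reads in kid and 13 in fetus, and cell cycle genes (38) gave 5 with 7 reads in kid and 10 in fetus. All circRNAs of the sarcomere hosts summed to a mean of 40794 CPM in kid and 19126 CPM in fetus. For matrix hosts these means were 3491 CPM in kid and 5537 CPM in fetus, and for cell cycle hosts 805 CPM in kid and 1714 CPM in fetus. Lists of endothelium, erythroid cells, fat, nerve, smooth muscle, and cartilage, tendon and bone had 1 member each, with at most 2 reads, and the immune list had none. Over all their circRNAs, the 7 nerve hosts summed to 0 to 129 CPM in kid and 219 to 345 CPM in fetus libraries, and the 5 smooth muscle hosts to 1576 to 2320 CPM in kid and 918 to 1370 CPM in fetus libraries. The 3 fat hosts summed to 112 to 304 CPM in kid and 0 to 102 CPM in fetus libraries, and the 5 erythroid hosts to 130 to 206 CPM in kid and 25.5 to 109.6 CPM in fetus libraries. The 10 endothelial hosts (347 to 437 CPM in kid, 197 to 521 CPM in fetus), the 4 immune hosts (0 to 101 CPM in kid, 27.4 to 51.0 CPM in fetus) and the 1 host of cartilage, tendon and bone (0 to 25.7 CPM in kid, 0 CPM in fetus) overlapped between stages. The lists include DES (smooth muscle) and SPTB (erythroid), and whether the listed hosts mark only the named cells in this tissue was not tested. The part of these cells in the results was not tested.

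TTN, the gene of the giant sarcomere protein titin, gave more single-exon circRNAs than any other host: 20, of which 16 had an exon number, from exon 28 to exon 296. They were small in number of reads, with at most 11 kid reads each, and 17 had no fetus read. Summed, they had 33, 9 and 26 reads in kid 1, 2 and 3, against 2, 1 and 0 in fetus 1, 2 and 3. Every kid library lay above every fetus library, and the pooled CPM ratio of kid over fetus was 17.3 (exact 95% interval 5.67 to 85.9, counting error only). It was 9.58 without fetus 3 and 36.9 without fetus 1, since it rests on 3 fetus reads. Over the 16 with an exon number the ratio was 14.5 (4.71 to 72.3). The 82 multi-exon circRNAs of TTN had 1602 ± 388 CPM in kid and 1654 ± 322 CPM in fetus (SD, n = 3 each).

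Among 28 hosts in which both classes met the minimum of 5 reads in 3 libraries, TTN was the 1 (3.57%) in which the change of single-exon and multi-exon circRNAs differed. Single-exon circRNAs were 3.90 higher on the log2 scale in kid and multi-exon ones -0.04, a difference of 3.94 (adjusted p = 3.72e-04, edgeR's diffSpliceDGE). TTN met the read minimum for its single-exon circRNAs only through the 3 kid libraries, the stage in which they were high. Its entry to the test and the size of the difference are therefore not independent, and it could not be tested without any of these libraries. Next came TMCC1 (difference 1.60), GFRA2 (2.52) and CDH7 (2.08), each with adjusted p = 0.413, and ADCY2 (-2.45, adjusted p = 0.592). In GFRA2, a receptor gene of the GDNF family, multi-exon circles had 61.6 ± 57.0 CPM in kid and 427 ± 142 CPM in fetus (SD, n = 3 each). Its single exon had 224 ± 133 CPM in kid and 237 ± 22.9 CPM in fetus (SD, n = 3 each), a log2 difference of -0.03.

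**Figure D5:**
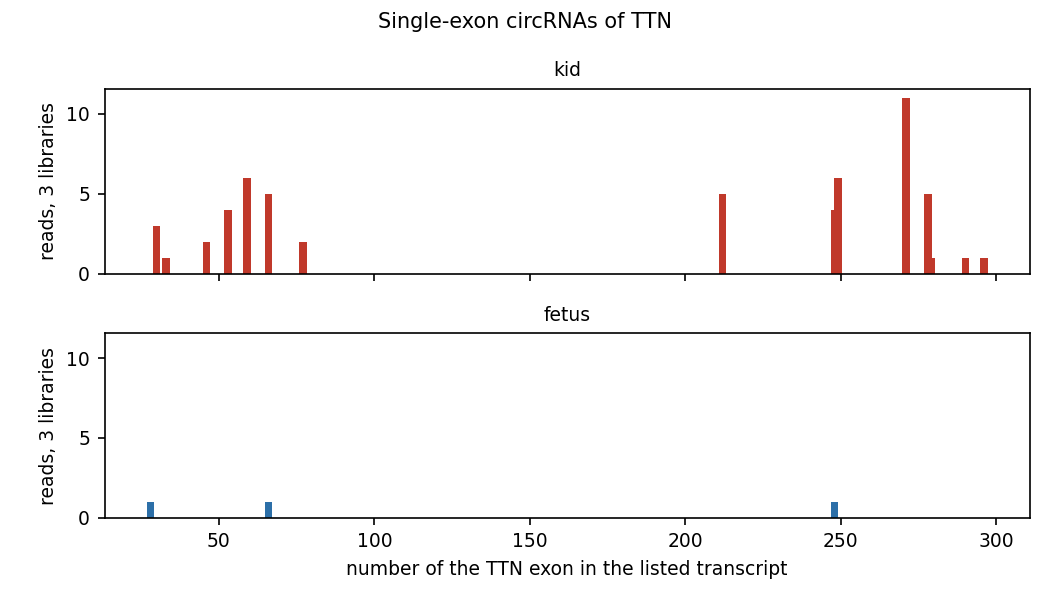
Back-splice reads summed over the 3 libraries of a stage (y axis) for the 16 single-exon circRNAs of TTN with an exon number, placed by exon number (x axis), in kid (upper) and fetus (lower). Kid reads are spread from exon 30 to exon 296, with 11 reads at exon 271, and fetus reads appear at 3 exons with 1 read each.

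Many of these TTN exons had like lengths: of the 16, 4 had 279 bases, 2 had 282, 2 had 300 and 2 had 306. Exons of this kind encode repeated titin domains, and reads of near-identical exons can be assigned to a neighbour, so the position of single members is uncertain. Of the 20, 13 were read in a single kid library, and 2 lay on the plus strand, against the gene.

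Within a stage some members varied widely. Of 37 members with at least 50 reads, the highest CPM was over 4 times the lowest among kid libraries in 8 and among fetus libraries in 6, and the median ratio was 1.94 in kid and 1.87 in fetus. In 6 of the 8 the lowest kid library was kid 3. Exon 2 of ZNF608, a zinc finger gene, had 32, 17 and 0 reads in kid 1, 2 and 3, against 16, 17 and 33 in fetus libraries. That of AGPAT4, an acyltransferase gene of phospholipid synthesis, had 31, 9 and 2 reads in kid and 25, 28 and 36 in fetus libraries. That of NAPEPLD, a phospholipase gene of N-acylethanolamine synthesis, had 54, 26 and 5 reads in kid and 9, 12 and 17 in fetus libraries. Kid 3 was low in all of these, in which the fetus libraries stood within 1.43-fold of each other in CPM. None passed the stage test (adjusted p = 0.571, 0.106 and 0.415), although AGPAT4 did not overlap between stages. Over the 37, the median coefficient of variation was 32.9% among kid and 35.6% among fetus libraries, against 30.2% among kid and 28.3% among fetus libraries for 928 multi-exon circRNAs with at least as many reads.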

How the data were processed

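Per the labels, total RNA was depleted of ribosomal RNA, treated with RNase R and sequenced as strand-marked paired reads of 150 bases. Of tools, cutadapt, FastQC and TopHat appear in the submitters' processing notes. No circRNA caller or genome build is given in the sources used here, and coordinates are those of the files. Per the file headers, the authors deposited back-splice counts for each circRNA in each library, a normalized signal (SRPBM, not used for tests), lengths (a score in the sense of a plain number), exon counts and host genes, a table of percent values on read quality, and their own comparison as log2 fold changes with p-values and q-values. In the authors' deposited table, 13 of 992 single-exon entries had a q-value under 0.05, 9 higher and 4 lower in kid, against 198 of all 25500.

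Exon numbers were taken from a column whose numbers equalled the exon count in 18724 of 18724 exonic entries that had them, and followed transcript order on both strands in all 1531 plus-strand and 1546 minus-strand transcripts checked. A member without an exon number counted as having an end at a listed intron where an intron given for it began or stopped within 1 base of that end, and one with an exon number as having both; 43 members had fewer than 2 such ends. Host gene numbers were matched to symbols in the RefSeq gene table (4563 of 4563). Counts of the whole table were fitted in R 4.3.3 by edgeR 4.0.16 (robust glmQLFit, then glmQLFTest), with TMM factors on total back-splice reads, at least 5 reads in at least 3 libraries and Benjamini-Hochberg adjustment; DESeq2 1.42.0 was an alternative. Hosts were tested with diffSpliceDGE. Values per library went through exact two-sided permutation tests (scipy 1.17.1), detection after thinning to 33222 reads (20 draws). SE was obtained from the fold change and the F statistic of the same fit. Floors of 3 reads over a stage and exact 95% intervals hold counting error alone, because reads copied by PCR are not separate molecules. The fits were tested on simulated data: of 152 of 1672 circRNAs changed 4-fold, 46.1% were recovered, with 2 false calls. The simulation gave every circRNA the same spread, set above the common biological coefficient of variation of the data (0.317). These rates may therefore differ in the data.

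The members and the 15 gene lists (433 genes) were chosen with earlier results of these data known. Named are the 10 members with most reads; up to 10 called in each direction without overlap; 2 per list in each direction, or the 2 with most reads where none passed; members of known single-exon hosts with at least 20 reads; the longest and shortest with at least 50 reads; and the 5 hosts with the smallest p for unequal change. LOC108638533, NFIX, AGPAT4, NAPEPLD and some list members were named after their values were seen. Not every member that the rule selects is described. One result is not reported here.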

Additional observations from a re-analysis of the deposited data

How the results depend on the processing

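The number of single-exon circRNAs called between stages was 15 and lay between 12 and 19 with DESeq2 (14), DESeq2 size factors (15), at least 10 reads (12), no read filter (14), the counts of the expression table (15), entries as listed (13), valid reads as library sizes (14), members with both ends at a listed intron only (13, chosen after seeing the data) and total back-splice reads without TMM (19). Without TMM the split was 9 higher and 10 lower, and the median log2 difference of all tested circRNAs moved to -0.16. With fetus 3 alone 3 were called, 3 higher and 0 lower. Leaving out 1 library gave 9 to 11 calls, 5 to 9 higher and 1 to 4 lower; without fetus 1 there were 9 (1 lower), without kid 1 9 (5 higher) and without kid 2 9 (5 higher). Members seen in only 1 stage drop below the read minimum when a library of that stage is left out. ACACB and SLC9A2 were called in all alternatives run, each library left out in turn included. PTGDR and TBC1D14 were called wherever tested. Of the 6 fits that left out 1 library, they could be tested only in the 3 that kept every library of their higher stage. FAM160A1, CKM, POPDC2 and DCLK1 had the same limit. Such fits cannot check these calls apart from the filter, which all of these members passed through that stage alone. The single-exon share of reads differed by -0.391 to -0.125 percentage points, and the share of detected circRNAs by -0.452 to 0.0696, turning positive (0.0696) without fetus 2. The difference in median length was 24.3 to 74.3 bases when 1 library was left out. The unequal change in TTN could not be tested with at least 10 reads or without kid 1, kid 2 or kid 3, leaving 0 hosts called. Without 1 fetus library 1 host, TTN, was called (difference 3.07 to 4.86). Those fits kept the 3 kid libraries through which TTN met the read minimum, so they cannot check its entry to the test.

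The replicate numbers do not pair the libraries by any label, and same-numbered libraries deviated from their stage means with correlations of -0.0095, 0.019 and -0.037. A fit with the replicate number as a block called 12 members (8 higher, 4 lower), without PANK1, LOC108638533 and POPDC2. TTN kept an adjusted p of 0.00616 there (diffSpliceDGE), with the same entry through the kid libraries alone. Not every library correlated best with its own number.

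Depth limits the class: 399 of 955 members had 1 read, and 3 reads in the shallowest library are worth 82.2 CPM.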
